A study of Homo sapiens with 12 samples.

Results

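The 10 genes described here handle zinc and related metals: the metallothioneins MT2A, MT1E, MT1F, MT1G and MT1X, the transcription factor MTF1, the zinc exporter SLC30A1, and the importers SLC39A6, SLC39A8 and SLC39A10. They were taken by name, and no value in the files entered the rule, although earlier results of these data were known when they were chosen. All 10 were found among the 63677 Ensembl gene identifiers of the count table. All 10 also passed the filter on low counts, as did 18674 genes in total. The libraries came from JEKO1, JVM2 and MAVER1, established human mantle cell lymphoma (MCL) lines, a cancer of mature B cells. Each line was left untreated (control) or received ironomycin, ibrutinib or the combination for 48 h. Ironomycin, derived from salinomycin, holds iron in lysosomes, and ibrutinib inhibits the kinase BTK in B cell receptor signaling. Ironomycin was given at 50 nM to JEKO1 and at 250 nM to JVM2 and MAVER1, and ibrutinib at 0.5 µM to JEKO1, 1.5 µM to JVM2 and 6.25 µM to MAVER1, so dose and cell line cannot be told apart. JVM2 was also grown with less serum and at a lower density than the other lines. There was 1 library for each line and treatment, 12 in all, so the cell line served as the replicate (n = 3 per treatment).

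Metallothioneins are small cysteine-rich proteins that bind zinc, copper and cadmium and buffer their free concentration. MTF1 senses free zinc and, when zinc is bound, switches on metallothionein genes and SLC30A1 through short promoter motifs called metal response elements. SLC30 proteins move zinc out of the cytosol, to the outside or into organelles, whereas SLC39 (ZIP) proteins bring it into the cytosol, and SLC39A8 also carries manganese and iron.

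The 5 metallothionein genes lie together on chromosome 16 in GRCh38, from MT2A (chr16:56608199-56609497) to MT1X (chr16:56682424-56684196). MT1G lies on the minus strand and the others on the plus strand. Their coding sequences have the same length, 186 bases with the stop codon, spread over 3 exons, and are so alike that a short read can match several of them. The coding sequences of the 4 genes whose levels differed most between the cell lines follow, taken from the GENCODE transcripts, with capitals at each base that differs from MT2A.
MT2A (chr16:56608656-56609351, plus strand): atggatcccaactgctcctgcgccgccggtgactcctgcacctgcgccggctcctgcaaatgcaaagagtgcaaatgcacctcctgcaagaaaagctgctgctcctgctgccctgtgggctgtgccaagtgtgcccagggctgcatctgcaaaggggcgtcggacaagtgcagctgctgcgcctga
MT1E (chr16:56625852-56626968, plus strand): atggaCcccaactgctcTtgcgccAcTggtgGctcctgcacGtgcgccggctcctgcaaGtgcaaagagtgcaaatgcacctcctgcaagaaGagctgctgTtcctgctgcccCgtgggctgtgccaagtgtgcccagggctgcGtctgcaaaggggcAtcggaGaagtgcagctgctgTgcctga
MT1F (chr16:56658059-56659161, plus strand): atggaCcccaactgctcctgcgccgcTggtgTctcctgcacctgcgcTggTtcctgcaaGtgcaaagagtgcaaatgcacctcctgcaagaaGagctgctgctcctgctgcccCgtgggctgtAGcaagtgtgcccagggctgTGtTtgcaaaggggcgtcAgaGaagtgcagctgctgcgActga
MT1G (chr16:56666882-56667993, minus strand): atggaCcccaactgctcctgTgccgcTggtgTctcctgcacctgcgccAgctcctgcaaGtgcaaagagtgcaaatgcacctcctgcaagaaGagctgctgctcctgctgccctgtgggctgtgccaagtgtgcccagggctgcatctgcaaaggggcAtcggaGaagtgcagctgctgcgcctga
MT1G differed from MT2A at 9 bases (95.2% identity), MT1E at 14 (92.5%) and MT1F at 16 (91.4%). MT1X, not shown, differed from MT2A at 14 bases. Over the whole transcripts, 4.88% of the 50-base stretches of MT2A were also present in a transcript of another gene, against 5.34% for MT1E, 3.59% for MT1F, 20.2% for MT1G and 45.1% for MT1X. The MT2A transcript used has 786 bases and starts at chr16:56608199, upstream of the start used for its promoter below. Its share therefore depends on the transcript chosen. With 100-base stretches the share was 0% for MT2A, MT1E, MT1F and MT1G and 19.1% for MT1X. Those of MT1X were shared with AC026461.1 only, and matches on either strand were counted. Levels of MT1G and MT1X are therefore the least certain of the 5, because how reads that match several genes were counted is not given in the sources used here.

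Metal response elements share the core TGCRCNC, which was searched as TGCACNC and TGCGCNC on both strands in the 250 bases before each start in the RefSeq promoter table (GRCh38.p14), where 7 of the 10 genes were present. The promoters of 2 genes that MTF1 is known to control are shown with every match in capitals.
MT2A (chr16:56608334-56608583, plus strand): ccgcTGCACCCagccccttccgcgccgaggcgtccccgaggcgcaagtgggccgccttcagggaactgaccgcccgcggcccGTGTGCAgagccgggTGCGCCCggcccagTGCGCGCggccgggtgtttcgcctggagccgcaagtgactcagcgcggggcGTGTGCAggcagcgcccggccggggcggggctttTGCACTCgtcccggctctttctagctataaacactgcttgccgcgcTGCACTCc
SLC30A1 (chr1:211579162-211579411, minus strand): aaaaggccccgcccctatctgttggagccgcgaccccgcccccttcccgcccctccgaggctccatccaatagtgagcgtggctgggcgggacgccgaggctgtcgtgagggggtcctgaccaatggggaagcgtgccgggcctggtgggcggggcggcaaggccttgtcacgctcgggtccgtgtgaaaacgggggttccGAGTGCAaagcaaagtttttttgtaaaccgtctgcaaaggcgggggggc
The MT2A window held 7 matches, the MT1X window 4 and the SLC30A1 window 1. At least 1 match was found in 24.8% of all 35116 windows (9.87% for TGCACNC and 16.8% for TGCGCNC), at least 4 in 0.37% and at least 7 in 0.0313%. SLC39A6 held 1 match, SLC39A8 held 1 in one of its 3 windows, and no match was found in the windows of MTF1 and SLC39A10. A match is a run of letters, and binding was not measured.

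The libraries held between 35448523 and 38630809 counted reads, so depth was alike throughout. Transcripts of the B cell genes MS4A1 and CD79A were abundant in all 3 lines. Of 8 markers of other cell types, the monocyte genes CD14, LYZ and CSF1R reached 14, 35 and 181 reads in a library, the T cell genes CD3D, CD3E and CD2 reached 18, 84 and 28, and the epithelial genes EPCAM and KRT18 reached 537 and 323. CSF1R was highest in JVM2 (129 to 181 reads) and EPCAM and KRT18 were highest in MAVER1 (282 to 537 and 105 to 323 reads), and their part in the line differences was not tested. SOX11, a usual MCL marker, had 0 reads in the 4 JVM2 libraries, and CCND1 (cyclin D1) had a median of 261 CPM in JVM2 against 2756 CPM in JEKO1 and 4591 CPM in MAVER1. Levels are given below as raw reads or as CPM, which divides each count by its library's total after scaling by the trimmed mean of M values (TMM). In bulk RNA, fewer cells expressing a gene and less RNA per cell cannot be told apart.

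To find out whether the drugs changed these genes, each treatment was first compared with control and with the single drugs. None of the 10 genes passed the test. With cell line as a block, a gene was called when edgeR's quasi-likelihood F-test gave it an adjusted p below 0.05 and its fitted log2 value was 1 or more, or -1 or less. With ironomycin 0 of 10 genes were called, beside 0.214% of all tested genes. With ibrutinib 0 of 10 were called (background 0%), with both drugs 0 of 10 (6.29%), with both drugs against ironomycin 0 of 10 (0%) and with both drugs against ibrutinib 0 of 10 (4.66%). The departure of both drugs from the sum of the single changes was called in 0 of 10 genes (0%). DESeq2 also called 0 of 10 in each of these 6 comparisons, although in 3 of them it gave no adjusted p for 2 or 3 of the metallothioneins. At an unadjusted p below 0.05, edgeR gave 1 gene in each comparison except ibrutinib, where it gave 0. Of all tested genes, 22.5% met that threshold with ironomycin, 3.64% with ibrutinib, 41.1% with both drugs, 10.5% with both drugs against ironomycin, 37.7% with both drugs against ibrutinib and 1.97% in the departure from the sum. The comparisons share libraries, so they are not independent. In each comparison, at least 8 of the 10 genes had a 95% interval of the log2 fold change that lay between -1 and 1. The median size of the log2 fold change of the 10 genes was 0.12 with ironomycin and 0.16 with both drugs, against 0.22 and 0.34 over all tested genes. With ibrutinib the median size for the 10 genes was the larger, 0.14 against 0.11.

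**Figure D1:**
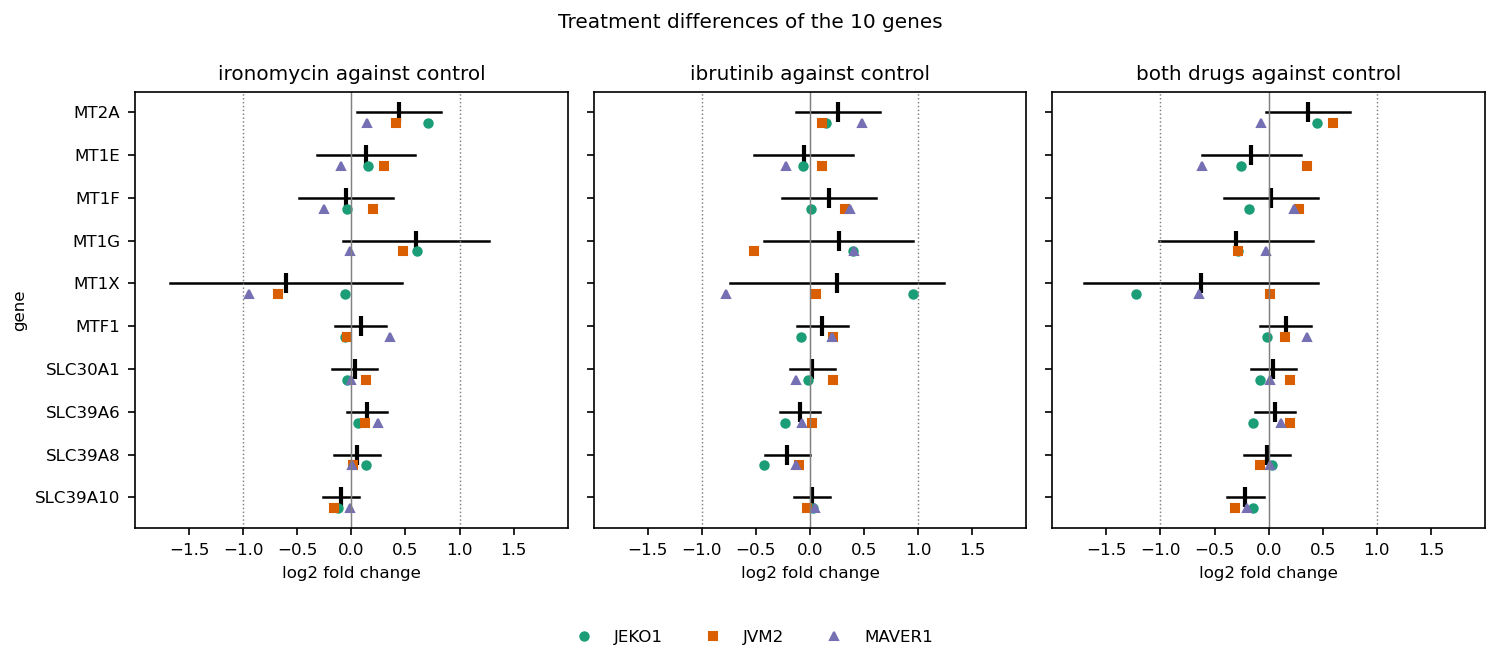
Log2 fold changes of the 10 genes with ironomycin, ibrutinib and both drugs against control; each black tick is the fitted value, each line its 95% interval (edgeR) and the coloured symbols are the ratios within JEKO1, JVM2 and MAVER1, with dotted lines at the fold minimum. Fitted values lie between -0.62 (MT1X, both drugs) and 0.60 (MT1G, ironomycin), and only the intervals of MT2A with ironomycin and SLC39A10 with both drugs leave 0 out.

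MT2A, the metallothionein with the most reads in JVM2 and MAVER1, had the lowest unadjusted p of the 10 genes with ironomycin. In JEKO1 it had 255 reads in the control, 440 after ironomycin, 283 after ibrutinib and 370 after the combination. In JVM2 the reads were 2332, 3223, 2576 and 3728 in the same order. In MAVER1 they were 200, 228, 287 and 200. Ironomycin libraries were thus above their control in all 3 lines, while the MAVER1 library with both drugs was not. In JEKO1 the log2 ratio of ironomycin to control was 0.71, compared with 0.41 in JVM2 and 0.15 in MAVER1. The fitted log2 fold change was 0.44 ± 0.18 (SE, n = 3), with a 95% interval from 0.05 to 0.82 and an adjusted p of 0.179 (edgeR). With both drugs against control it was 0.36 ± 0.18 (adjusted p = 0.144), and with ibrutinib it was 0.26 ± 0.18 (adjusted p = 1).

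Whether ironomycin acted alike in the 3 lines was tested with terms for the difference in its effect between lines. For MT2A, the effect in MAVER1 was lower than in JEKO1 by a log2 difference of -0.72, whereas JVM2 differed from JEKO1 by -0.06. The adjusted p was 0.0586, so MT2A did not pass, and 0 of the 10 genes did (edgeR), beside 9.38% of all tested genes. At an unadjusted p below 0.05, edgeR gave 1 of the 10 genes, MT2A. The share of all tested genes at that unadjusted threshold is not given, so this count has no background beside it. MT2A passed in 4 of 8 other ways of fitting this model, DESeq2 among them, with adjusted p-values between 0.0278 and 0.968 over the 8, the highest of them without MAVER1.

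The MT1 genes gave few reads outside JEKO1. MT1E had 198, 232, 189 and 176 reads in the JEKO1 control, ironomycin, ibrutinib and combined libraries. It had 27 to 37 reads in JVM2 and 15 to 23 in MAVER1. Its log2 fold change with ironomycin was 0.13 ± 0.20 (interval -0.32 to 0.59), and the single-line ratios lay on both sides of 0. MT1F had 360, 368, 362 and 337 reads in the JEKO1 libraries in the same order. Its log2 fold change with ironomycin was -0.05 ± 0.20 (interval -0.49 to 0.38).

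MT1G had 68 reads in the JEKO1 control, 110 after ironomycin, 90 after ibrutinib and 59 after the combination. In JVM2 it had 3 to 8 reads and in MAVER1 1 to 2 reads, too few to show any treatment difference there. With both drugs against ironomycin its log2 fold change was -0.90 ± 0.31 (interval -1.58 to -0.21), with an unadjusted p of 0.0152 and an adjusted p of 0.431 (edgeR). The departure from the sum of the single changes was -1.16 ± 0.44 on the log2 scale (unadjusted p = 0.0232, adjusted p = 0.9999, edgeR). These values rest on the JEKO1 reads.

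MT1X had 16, 16, 33 and 6 reads in the JEKO1 control, ironomycin, ibrutinib and combined libraries. It had 9 to 16 reads in JVM2 and 6 to 13 in MAVER1. Scaled to CPM, the ironomycin library lay below its control in 3 of 3 lines, at counts of 6 to 16 reads. Its log2 fold change with ironomycin was -0.60 with a 95% interval from -1.68 to 0.47, which reached beyond the fold minimum.

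Because reads of near-identical genes can be split between them, the reads of MT2A and of all listed MT1 genes and pseudogenes were also summed over 18 table rows, without AC026461.1. With ironomycin the log2 fold change of this sum was 0.27 ± 0.16 (adjusted p = 0.332) and with both drugs 0.19 ± 0.16 (adjusted p = 0.39, edgeR). Without JVM2 the value with both drugs was -0.09 (adjusted p = 0.675).

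MTF1 and the exporter SLC30A1, which the zinc-bound MTF1 protein is known to induce, had at least 553 reads in each library. MTF1 had 703, 710, 662 and 737 reads in JEKO1, 1076, 1085, 1275 and 1266 in JVM2, and 795, 1049, 942 and 1063 in MAVER1, each in the order used above. Scaled to CPM, its 3 treated libraries all lay above the control in MAVER1 but not in JEKO1 or JVM2. The log2 fold change was 0.09 ± 0.11 with ironomycin (interval -0.15 to 0.32) and 0.16 ± 0.11 with both drugs (interval -0.08 to 0.39). SLC30A1 had 960, 982, 947 and 967 reads in JEKO1, 575, 658, 682 and 700 in JVM2, and 591, 607, 553 and 623 in MAVER1. Its log2 fold change was 0.03 ± 0.09 with ironomycin (interval -0.18 to 0.24) and 0.04 ± 0.09 with both drugs (interval -0.17 to 0.25).

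Among the importers, SLC39A10 came closest to a call. It had 2400, 2319, 2443 and 2312 reads in JEKO1, 801, 744, 804 and 685 in JVM2, and 1103, 1126, 1170 and 1006 in MAVER1. The library with both drugs held the fewest reads in every line. The log2 fold change with both drugs was -0.21 ± 0.08 against control (interval -0.38 to -0.05, adjusted p = 0.058) and -0.23 ± 0.08 against ibrutinib (interval -0.40 to -0.06, adjusted p = 0.0504, edgeR), lower in 3 of 3 lines in each case. With ironomycin alone it was -0.10 ± 0.08 (adjusted p = 0.479). These values are below the fold minimum whatever their p.

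SLC39A6 (ZIP6), a plasma membrane importer, had 1468 to 1886 reads in JEKO1, 2265 to 2758 in JVM2 and 4163 to 5206 in MAVER1. Its log2 fold change with ironomycin was 0.14 ± 0.08 (interval -0.04 to 0.33) and it was higher than control in 3 of 3 lines. SLC39A8 (ZIP8) had 1036 to 1606 reads in JEKO1, with the lowest in the ibrutinib library, 2024 to 2232 in JVM2 and 3212 to 3598 in MAVER1. With ibrutinib its log2 fold change was -0.21 ± 0.10 (interval -0.42 to 0.00, adjusted p = 1), lower in 3 of 3 lines.

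The levels of these genes differed far more between the cell lines than between treatments. The share of the variance of log2 CPM over the 12 libraries that lay between lines was 99.4% for MT1F, 98.2% for MT1E, 97.9% for MT2A, 97.5% for MT1G, 97.4% for SLC39A10 and SLC39A6, 95.5% for SLC39A8, 93.4% for SLC30A1 and 92.8% for MTF1. For MT1X it was 25.9%, and the median over all tested genes was 85.6%. Levels differed between lines for 9 of the 10 genes at an adjusted p below 0.05 (edgeR, 2 coefficients), all but MT1X (adjusted p = 0.155). That share is close to the background, since 90.0% of all tested genes differed. MT1G passed the filter on low counts only through its JEKO1 reads. Its line difference and its share of the variance are therefore not independent of that filter. The 4 libraries of a line are 4 treatments of 1 culture line, so these p-values measure spread within lines and not between independent samples of a line.

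**Figure D2:**
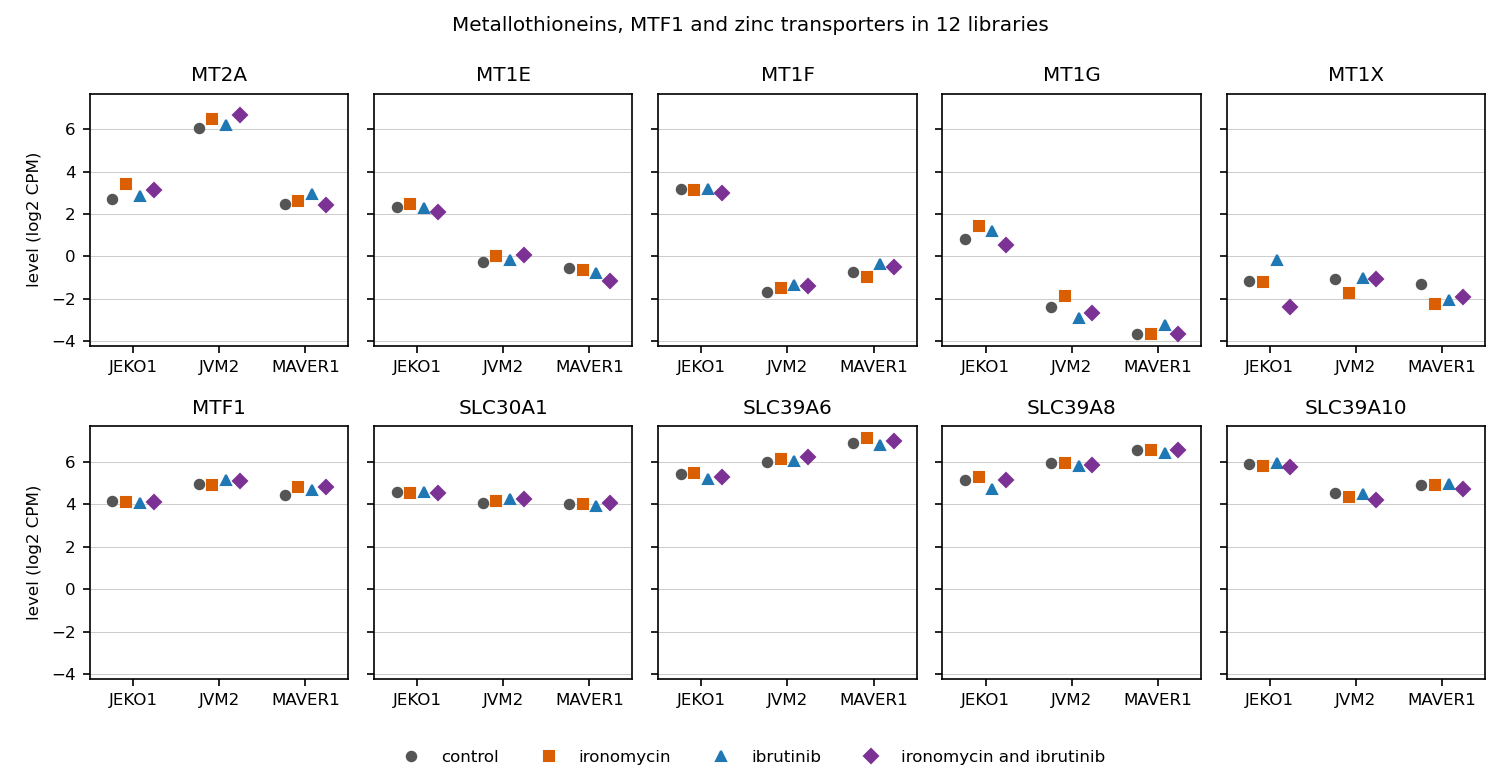
Level of each gene (log2 CPM) in the 12 libraries, by cell line on the horizontal axis and treatment by symbol. The MT2A libraries of JVM2 lie well above those of the other lines, the MT1E, MT1F and MT1G libraries of JEKO1 lie above those of JVM2 and MAVER1, and the 4 treatments of a line lie close together for most genes.

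By pairs of lines with the fold minimum, 5 of the 10 genes were called in JVM2 against JEKO1 (background 46.8%), 5 in MAVER1 against JEKO1 (34.2%) and 2 in MAVER1 against JVM2 (40.0%). Of the last 2, MT2A and MT1G, the call of MT1G rests on 5 reads over the MAVER1 libraries and 20 over those of JVM2, and MT1G passed the filter on low counts only through its JEKO1 reads. The calls of MT1G in JVM2 and in MAVER1 against JEKO1 are thus not independent of that filter. MT2A was highest in JVM2, with 66.6 to 100.4 CPM, against 6.41 to 10.5 CPM in JEKO1 and 5.28 to 7.73 CPM in MAVER1. The JVM2 range did not overlap the others, whereas those of JEKO1 and MAVER1 overlapped. The share of all tested genes with ranges that did not overlap is not given, here or below. Since 90.0% of them differed between lines, separate ranges cannot be read as particular to these genes. JVM2 exceeded JEKO1 by 3.33 ± 0.16 on the log2 scale (adjusted p = 8.015e-09), and MAVER1 was below JVM2 by a log2 fold change of -3.72 ± 0.16 (adjusted p = 4.806e-09).

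MT1E, MT1F and MT1G, unlike MT1X, were higher in every JEKO1 library than in any library of the other lines. MT1F had 7.97 to 9.10 CPM in JEKO1, against 0.257 to 0.336 CPM in JVM2 (9 to 12 reads) and 0.456 to 0.727 CPM in MAVER1 (17 to 27 reads). Its log2 fold change was -4.83 ± 0.18 in JVM2 and -3.86 ± 0.16 in MAVER1 against JEKO1. MT1E had 4.16 to 5.55 CPM in JEKO1, 0.771 to 0.997 in JVM2 and 0.396 to 0.636 in MAVER1. None of these ranges overlapped that of JEKO1. The log2 fold change of MT1E was -2.43 ± 0.17 in JVM2 and -3.16 ± 0.18 in MAVER1 against JEKO1.

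MT1G had 327 reads over the 4 JEKO1 libraries, 20 over those of JVM2 and 5 over those of MAVER1. In CPM, JEKO1 was 14.4 times JVM2 (95% counting interval 9.18 to 23.9) and 59.3 times MAVER1 (25.2 to 183.9). These intervals cover counting error only. The total of MT1X was 71 reads in JEKO1, 56 in JVM2 and 34 in MAVER1, with ranges that overlapped.

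**Figure D3:**
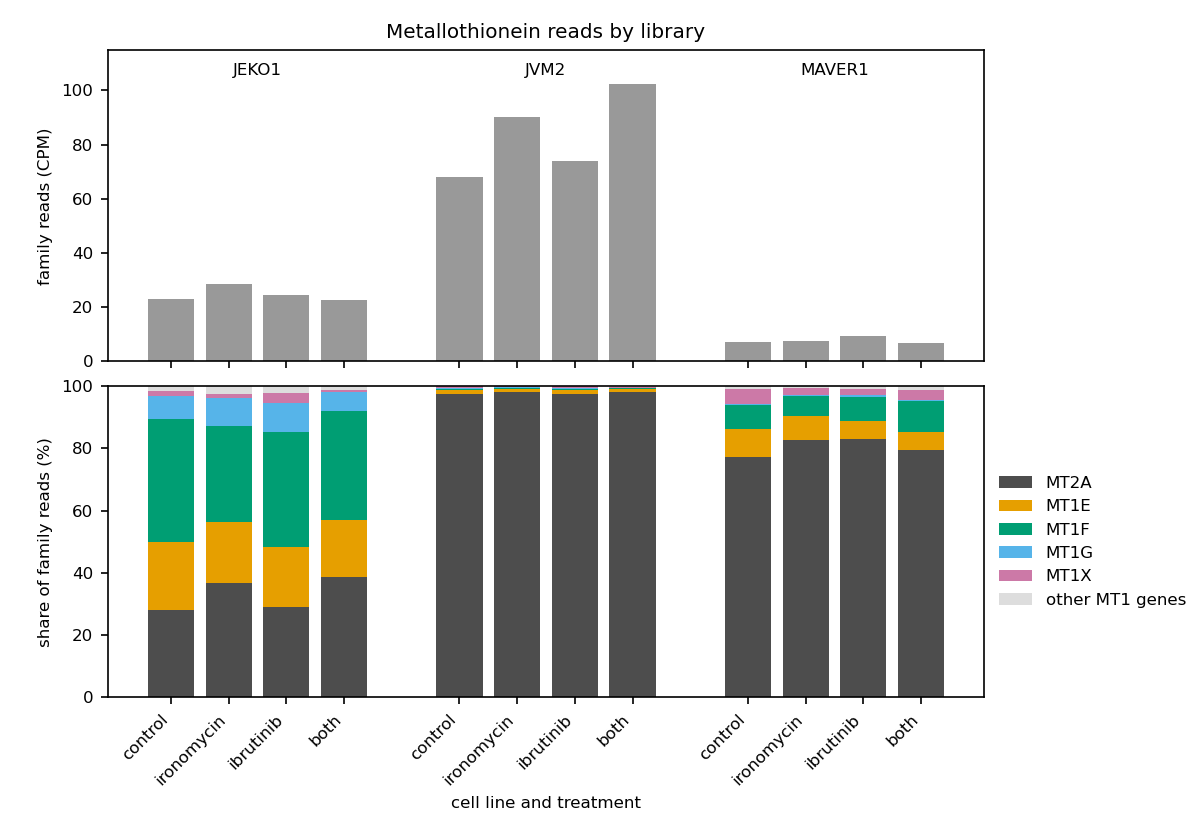
Summed metallothionein reads per library in CPM (top) and the share of each gene in that sum in percent (bottom), by cell line and treatment. MT2A makes up between 97.6% and 98.0% of the sum in JVM2 but between 28.0% and 38.6% in JEKO1, where MT1F and MT1E supply most of the rest.

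The lines therefore differed in both the amount and the makeup of metallothionein RNA. The family sum had a median of 82.1 CPM in JVM2, 23.7 CPM in JEKO1 and 7.28 CPM in MAVER1, and JVM2 exceeded JEKO1 by 1.76 ± 0.14 on the log2 scale while MAVER1 differed from JEKO1 by -1.69 ± 0.14 (adjusted p = 3.854e-07 and 1.286e-06, edgeR). MT2A supplied 28.0% to 38.6% of the family reads in JEKO1, 97.6% to 98.0% in JVM2 and 77.2% to 83.0% in MAVER1. MT1F supplied 30.8% to 39.6% in JEKO1 but 0.316% to 0.455% in JVM2. Per kilobase of the transcript, MT2A had a median of 102 CPM in JVM2, 10.1 in JEKO1 and 7.41 in MAVER1. On that per-length scale MT1F stood at 12.9 in JEKO1, where its range of 11.6 to 13.2 overlapped that of MT2A (8.15 to 13.4). The MT2A values use its 786-base transcript, and a transcript from the start used for its promoter would be shorter and raise them.

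Of the 12 metallothionein genes listed, 7 fell below the filter on low counts. MT1A, MT1B, MT1HL1 and MT4 had 0 reads in all 12 libraries, which allows up to 3 reads in a library, or at most 0.0856 CPM. That bound covers counting error only, because how reads that match several genes were counted is not given. MT1H had 0 to 13 reads, with the highest count in JEKO1, and MT1M and MT3 had 1 and 3 reads over all 12 libraries. The transcribed pseudogene MT1DP had 5 to 17 reads in each JEKO1 library and 0 in those of JVM2 and MAVER1.

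The transporters and MTF1 differed by smaller amounts. SLC39A10 had 54.7 to 61.4 CPM in JEKO1, 26.5 to 31.5 in MAVER1 and 18.5 to 22.9 in JVM2, and these ranges did not overlap. JVM2 was called below JEKO1 (log2 fold change -1.46 ± 0.07, adjusted p = 5.813e-09). MAVER1 stood at -0.97 ± 0.07 against JEKO1, just inside the fold minimum. SLC39A6 and SLC39A8 were lowest in JEKO1 and highest in MAVER1. SLC39A6 had 36.9 to 45.1 CPM in JEKO1, 64.7 to 74.3 in JVM2 and 112.1 to 139.8 in MAVER1. SLC39A8 had 26.0 to 38.4, 56.6 to 61.3 and 86.5 to 94.99 CPM in the same order. Both were called in MAVER1 against JEKO1, with log2 fold changes of 1.60 ± 0.07 and 1.47 ± 0.08, and their 3 ranges did not overlap. As above, the share of all tested genes with such ranges is not given.

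SLC30A1 had 22.9 to 24.1 CPM in JEKO1, above 16.41 to 19.08 in JVM2 and 14.9 to 16.44 in MAVER1, whose ranges overlapped. The log2 fold change was -0.38 ± 0.08 in JVM2 and -0.56 ± 0.08 in MAVER1 against JEKO1. MTF1 had 16.6 to 17.7 CPM in JEKO1, 22.0 to 28.2 in MAVER1 and 29.8 to 35.7 in JVM2, so its order across the lines was neither that of MT2A in full nor that of SLC30A1. JVM2 exceeded JEKO1 in MTF1 by 0.92 ± 0.09 on the log2 scale.

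**Figure D4:**
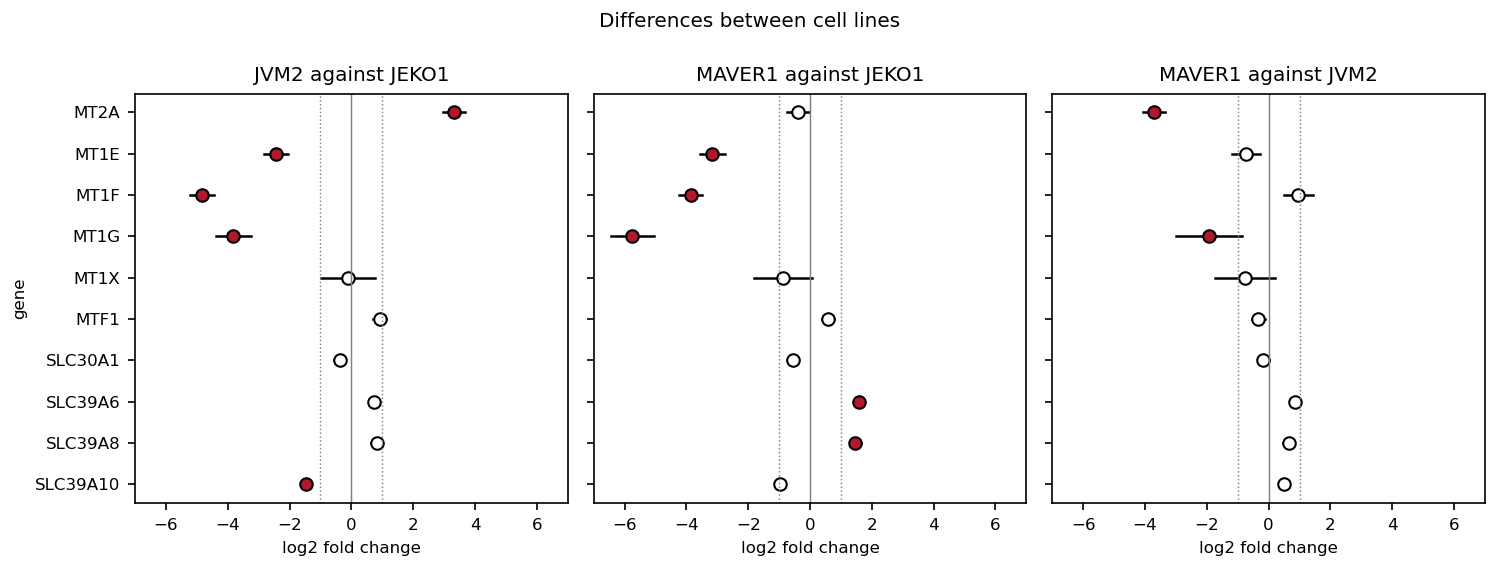
Fitted log2 fold changes between pairs of cell lines with their 95% intervals (edgeR, 4 libraries per line); filled circles mark calls and dotted lines the fold minimum. MT2A lies at 3.33 and the MT1E, MT1F and MT1G circles lie between -2.43 and -4.83 in JVM2 against JEKO1, while the transporters stay within 1.60 of 0 in all 3 panels.

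Over the 12 libraries, the levels of MT1E and MT1G followed each other (Pearson's r = 0.985), as did those of SLC39A6 and SLC39A8 (r = 0.979), while MT2A and MT1E did not (r = -0.20). After each line's mean was removed, these values were 0.342, 0.588 and 0.43. The 12 libraries share 3 lines, so the first values mainly restate the line differences.

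The full lists of SLC30 and SLC39 zinc transporters, which include the member transporters, gave the members their context. Of the 10 SLC30 genes 7 were tested and of the 14 SLC39 genes 12, and 0 of either were called in any of the 6 treatment comparisons with the fold minimum, by edgeR or by DESeq2, although at an unadjusted p below 0.05 edgeR gave 3 and 5 with ironomycin (22.5% of all genes) and 4 and 7 with both drugs (41.1%). At an adjusted p below 0.05 with any fold change, which 0.584% of all genes met with ironomycin, 28.2% with both drugs and 23.3% with both drugs against ibrutinib, the counts were 0, 2 and 2 of 7 for SLC30 and 2, 3 and 3 of 12 for SLC39. SLC39A7 (ZIP7), which releases zinc from the endoplasmic reticulum, was higher in all 3 lines, by a log2 fold change of 0.56 ± 0.10 with ironomycin (adjusted p = 0.047) and 0.63 ± 0.10 with both drugs (adjusted p = 0.00373). SLC39A13 (ZIP13), an importer of the early secretory pathway, was higher by 0.50 ± 0.09 (adjusted p = 0.0499) and 0.72 ± 0.09 (adjusted p = 0.00251).

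SLC30A7 and SLC30A5, which load zinc into the secretory pathway, were higher with both drugs by 0.76 ± 0.17 (adjusted p = 0.0107) and 0.39 ± 0.10 (adjusted p = 0.0142). The importer SLC39A4 was lower with both drugs by a log2 fold change of -0.78 ± 0.12 (adjusted p = 0.00346), in 3 of 3 lines. SLC30A6, a partner of SLC30A5, stood at 0.17 ± 0.07 with both drugs (adjusted p = 0.1). The median log2 fold change with both drugs was 0.21 over the 7 SLC30 genes and 0.01 over the 12 SLC39 genes, beside 0.05 over all genes.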

How the data were processed

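RNA-seq was carried out on polyA RNA from 12 cell line cultures with a stranded paired-end DNBSEQ protocol. The deposited file holds raw read counts per Ensembl gene, which the authors made from alignments; the submitters' processing notes name STAR, DESeq2 and GRCh37, with no versions. The read counter, read length and handling of reads that match several genes are not given in the sources used here. Of the 63677 identifiers, 39699 were given symbols from a name table. Genes were filtered with edgeR's filterByExpr, scaled by TMM and tested with edgeR 4.0.16 (R 4.3.3) by quasi-likelihood F-tests with treatment and line terms, Benjamini-Hochberg adjusted over 18674 genes. Lines were tested in the same model. The difference in the ironomycin effect between lines was tested with 2 added terms, which pooled ironomycin without and with ibrutinib. Standard errors and 95% intervals were derived from the F statistics. Log2 CPM used a prior count of 2. Scripts were tested on simulated data. The pairing by line comes from the labels. Deviations from treatment means correlated between 0.926 and 0.976 within lines (18 pairs) and between -0.705 and -0.127 across lines. Subtracting a mean over the 3 lines itself pushes the values across lines below 0, so these correlations do not test the pairing. Separate cultures are not stated, so p-values measure the spread between these samples. Alternatives were RLE size factors, library totals, other filters, DESeq2 1.42.0, no line term, fewer libraries and no fold minimum. Members and lists were chosen with earlier results of these data known. Beyond the 10 members, genes were named if called in a treatment comparison, or as the 3 of each list with the largest change with ironomycin or both drugs among genes of at least 1 log2 CPM on average. For likeness, the 5 genes with the highest correlation were named, except any not reported here. Sequences came from GENCODE and RefSeq on GRCh38, not the build of the counts. Figures were drawn with matplotlib 3.10.9 in Python 3.11.15.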

Additional observations from a re-analysis of the deposited data

How the results depend on the processing

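The count of 0 called members held in all 6 treatment comparisons under every alternative run, the fit with no replicate block included, and 9 of 10 members differed between lines under all 10 alternatives run for that test. The fit with no replicate block called 0 genes in any comparison, against 40 with ironomycin and 1175 with both drugs with it. Over all genes, the counts lay between 0 and 369 with ironomycin and between 0 and 1877 with both drugs, and they were 1 and 22 without MAVER1 and 3 and 30 without JEKO1. With library totals the median log2 fold change of all genes with both drugs was 0.176 in place of 0.05, and 86.5% of the called genes were higher. MT1X was not tested with a minimum of 1 CPM, and MT1G was not tested without JEKO1 or with the compared treatments alone, where MT1X was missing from 1 of 5 fits. DESeq2 gave no adjusted p for MT1X and MT1G with ironomycin and with ibrutinib, nor for MT1X, MT1E and MT1G with both drugs against ironomycin. For the ironomycin effect between lines, 1 member (MT2A) was called with library totals, with no filter, with DESeq2 and without JEKO1 (adjusted p = 0.0408, 0.0278, 0.0408 and 0.0408). The cause was not tested. Of 632 member values under alternatives, 42 changed sign, none of them called in either fit and none above 0.979 in size.

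With RLE size factors these were SLC30A1 (both drugs against ibrutinib) -0.00017, SLC39A6 (the departure from the sum) -0.00404. With library totals these were MT1F (ironomycin against control) 0.027, SLC39A8 (both drugs against control) 0.11, MT1X (both drugs against ironomycin) 0.033, MT1E (both drugs against ibrutinib) 0.017, SLC30A1 (the departure from the sum) 0.025. With no filter on low counts these were MT1F (both drugs against control) -0.015, SLC30A1 (both drugs against ibrutinib) -0.0013. With a minimum of at least 1 CPM in 3 libraries these were SLC39A8 (both drugs against control) 0.012, SLC30A1 (the departure from the sum) 0.0043. With DESeq2 these were MT1F (both drugs against control) -0.019, MT1X (both drugs against ironomycin) 0.0027, SLC30A1 (both drugs against ibrutinib) -0.0024, SLC39A6 (the departure from the sum) -0.0049. With no replicate block these were MT1F (both drugs against control) -0.14, MT2A (both drugs against ironomycin) 0.12, MT1F (both drugs against ironomycin) -0.094, SLC39A6 (the departure from the sum) -0.0102. When each line was left out in turn, the log2 fold changes that changed sign ranged as follows. For ibrutinib against control they ranged from -0.35 to 0.62 for MT1X, -0.076 to 0.096 for SLC30A1, -0.12 to 0.00037 for MT1E. For both drugs against ironomycin they ranged from -0.25 to 0.026 for MT2A, -0.60 to 0.63 for MT1X, -0.022 to 0.037 for SLC30A1, -0.088 to 0.35 for MT1F. For both drugs against ibrutinib they ranged from -1.47 to 0.022 for MT1X, -0.16 to 0.40 for MT2A, -0.0049 to 0.075 for MTF1, -0.039 to 0.058 for SLC30A1. For the departure from the sum they ranged from -0.93 to 0.98 for MT1X, -0.022 to 0.041 for SLC39A6, -0.084 to 0.054 for SLC30A1, -0.12 to 0.047 for MTF1. For ironomycin against control they ranged from -0.046 to 0.065 for SLC30A1, -0.12 to 0.012 for MT1F, -0.052 to 0.16 for MTF1. For both drugs against control they ranged from -0.082 to 0.28 for MT1F, -0.068 to 0.10 for SLC30A1, -0.048 to 0.16 for SLC39A6, -0.089 to 0.31 for the metallothionein sum.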

Other observations

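Genes that answer to heavy metals and oxidative stress, and copper handling genes, were examined beside the zinc genes. Of 10 stress genes tested, 1 was called with both drugs, beside 6.29% of all tested genes against control and 4.66% against ibrutinib. It was SLC7A11, the cystine importer that feeds glutathione synthesis, with a log2 fold change of 1.30 ± 0.30 (adjusted p = 0.0112, edgeR) against control and 1.70 ± 0.30 (adjusted p = 0.00661) against ibrutinib. In JEKO1 its log2 ratio of both drugs to control was 1.62, in JVM2 0.15 and in MAVER1 2.07, and its ironomycin effect differed between lines (adjusted p = 0.0115, edgeR). At an adjusted p below 0.05 that effect differed for 5 of the 10 stress genes, SLC7A11 included, beside 9.38% of all tested genes. With both drugs, the log2 fold change was -0.50 ± 0.09 for the cochaperone gene DNAJB1 (adjusted p = 0.00516) and -0.58 ± 0.13 for SRXN1, which repairs oxidized peroxiredoxins (adjusted p = 0.0112), both lower in 3 of 3 lines. Of 7 copper handling genes tested, 0 were called in any treatment comparison by edgeR or DESeq2. By edgeR, at an unadjusted p below 0.05, 1 of them passed with ironomycin and 2 with both drugs against control, beside 22.5% and 41.1% of all tested genes. COX17, the copper chaperone of cytochrome c oxidase, had a log2 fold change of -0.52 ± 0.11 (adjusted p = 0.00687), COMMD1 of -0.37 ± 0.12 (adjusted p = 0.0426) and the copper exporter ATP7A of 0.26 ± 0.19 (adjusted p = 0.334). Of the 3 tested genes of the list of other metal sensors and transporters, 0 were called by edgeR or DESeq2 and 1, SLC11A2, which imports ferrous iron, had an unadjusted p below 0.05 with ironomycin and with both drugs, where its log2 fold change was 0.27 ± 0.08 (adjusted p = 0.0276).

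The genes whose levels varied most like 3 of the members were sought among 11207 genes, after each line's mean was removed, over the 12 libraries, which share 3 lines and 4 treatments. For MT2A the highest Pearson's r was 0.906 (DRAM1), followed by SLC16A1, MICA, VANGL2 and LRP5 (0.82). For SLC30A1 it was 0.852 (TRIM35), followed by DUSP7, ANAPC4, ZFPL1 and BLK (0.792). For SLC39A10 it was 0.985 (RASSF6), and the others named are NET1, CWC22 and RFC4 (0.949).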
